A study of Capra hircus with 10 samples.

Results

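The family of miR-34 and miR-449 was examined in small RNA libraries from the mammary gland of lactating goats. Its members were taken by name, as every listed miRNA that is miR-34a, miR-34b, miR-34c, miR-449a, miR-449b or miR-449c once the species prefix is removed, from either arm of the hairpin. This gave 9 mature miRNA, from 6 precursors, of the 1804 miRNA listed in the libraries. All goats were of the Alpine breed and were at peak lactation, 48 ± 2 days after kidding, and had received for 2 weeks a hay-based diet with forage and concentrate at 35:65. The 4 Control goats (L01, L04, L06 and L10) stayed on this diet with free access to it, and the 6 food-deprived goats (FD; L02, L03 and L05, and L07, L08 and L09) received no food for the last 48 h before slaughter, with water available to both. RNA came from about 150 mg of whole mammary tissue of each goat, and each goat gave 1 library. In such tissue, fewer cells of a type and less RNA per cell cannot be told apart. The comparison of the diets asked whether the level of each member differed after food deprivation.

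MiRNA repress messenger RNA that pair with their seed, the short stretch near the 5′ end, so miRNA with the same seed share many predicted targets. The miR-34 genes are among the best known miRNA targets of the transcription factor p53, and miR-34a, miR-34b and miR-34c repress genes that drive the cell cycle and cell survival. MiR-34b and miR-34c are cut from the same primary transcript, miR-34a has a gene of its own, and the miR-449 miRNA lie in an intron of CDC20B and are known for their abundance in multiciliated epithelia, where they act together with miR-34b and miR-34c.

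The mature sequences are shown because membership was decided by name alone, and the sequences show what the named miRNA have in common and where the counting of one could touch another. They are those of the deposited tables, 5′ to 3′ and in DNA letters, with the seed (bases 2 to 8) in capitals. The 6 miRNA of the 5p arm were as follows (miR-34a-5p and miR-449c-5p are listed without an arm).
miR-34a-5p: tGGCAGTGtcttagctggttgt
miR-34b-5p: aGGCAGTGtaattagctgattgt
miR-34c-5p: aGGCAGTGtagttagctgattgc
miR-449a-5p: tGGCAGTGtattgttagctgg
miR-449b-5p: aGGCAGTGtattgttagctggc
miR-449c-5p: aGGCAGTGcatctctagct

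The 3 miRNA of the 3p arm are shown for contrast, since they come from the same hairpins but have other seeds (miR-34a-3p is listed under its human name).
miR-34a-3p: cAATCAGCaagtatactgccct
miR-34b-3p: aATCACTAgttccactgccatc
miR-449a-3p: tCAGCTAAcatgcaactgctatc

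The seed GGCAGTG was held by 6 of the 1804 listed miRNA, all of them the 5p members, and by 0 of the 1070 precursors that the study predicted with miRDeep2. The 3 seeds of the 3p members differed from it and from each other, and each was held by 1 listed miRNA. Outside the seed, miR-34b-5p and miR-34c-5p were nearly the same, and differed by A11G and T23C (the base of miR-34b-5p, the position counted from 1 at the 5′ end, then the base of miR-34c-5p). A read that ends before the last of these positions separates the 2 miRNA by 1 base, so the authors' counting could have divided such reads between them, and their separate levels are uncertain to that extent. MiR-449a-5p and miR-449b-5p shared a run of 20 bases and carry the same limit.

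The genes of all 6 precursors were found by symbol in RefSeq's annotation of the goat assembly ARS1.2, which is a later build than the one the reads were mapped to, and was used here only for names and neighbours. MIR34B and MIR34C lay next to each other on chromosome 15, with 0 genes between them, inside the span of C15H11orf88 and beside BTG4. MIR449A, MIR449B and MIR449C lay on chromosome 20 inside CDC20B, a gene whose neighbour MCIDAS encodes a regulator of multiciliated cell formation. MIR34A lay alone on chromosome 16, beside GPR157.

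The deposited counts summed to between 4495512 and 7506955 per Control library and to between 5674119 and 9842009 per FD library. Normalized counts are these counts divided by size factors (0.714 to 1.67), which put the libraries on a common scale. MiRNA known for mammary epithelial cells, among them the miR-200 group and miR-205, were present in every library, with summed normalized counts of 173949 to 245827. By the quasi-likelihood test of edgeR after Benjamini-Hochberg adjustment, 0 of the 490 miRNA compared between the diets passed an adjusted p of 0.1, while 77 had an unadjusted p under 0.05, and the same threshold was passed by 27 miRNA in DESeq2 and by 0 in limma-voom.

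The family made up a small share of the miRNome. Over the 10 libraries its 9 members held 4033 counts, of which 3870 belonged to the 6 miRNA with the shared seed and 163 to the 3p miRNA. Scaled to library totals, as CPM, the unit that puts every library on the same total, the family took 30.9 to 54.1 in Control libraries and 40.8 to 96.0 in FD libraries. The ranges of the diets overlapped, and the highest family level was in the FD library L08.

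MiR-34a-5p was the most abundant member in every library and ranked 218 of 1804 by mean level. Its mean over all libraries was 217 normalized counts, against 104 for miR-34c-5p (rank 280), 19.9 for miR-34b-5p (rank 458), 12.4 for miR-34b-3p (rank 517), 6.89 for miR-449a-5p (rank 617) and 2.12 for miR-34a-3p (rank 852). MiR-34c-5p was below miR-34a-5p in 10 of 10 libraries, although their ranges over libraries overlapped, and it was above miR-34b-5p in 10 of 10 with no overlap of the ranges. Further down the order the neighbours were less separate. MiR-34b-5p was above miR-34b-3p in 9 libraries and equal to it in 1, miR-34b-3p was above miR-449a-5p in 8 of 10, and miR-449a-5p was above miR-34a-3p in 8 of 10, each with overlapping ranges.

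**Figure D1:**
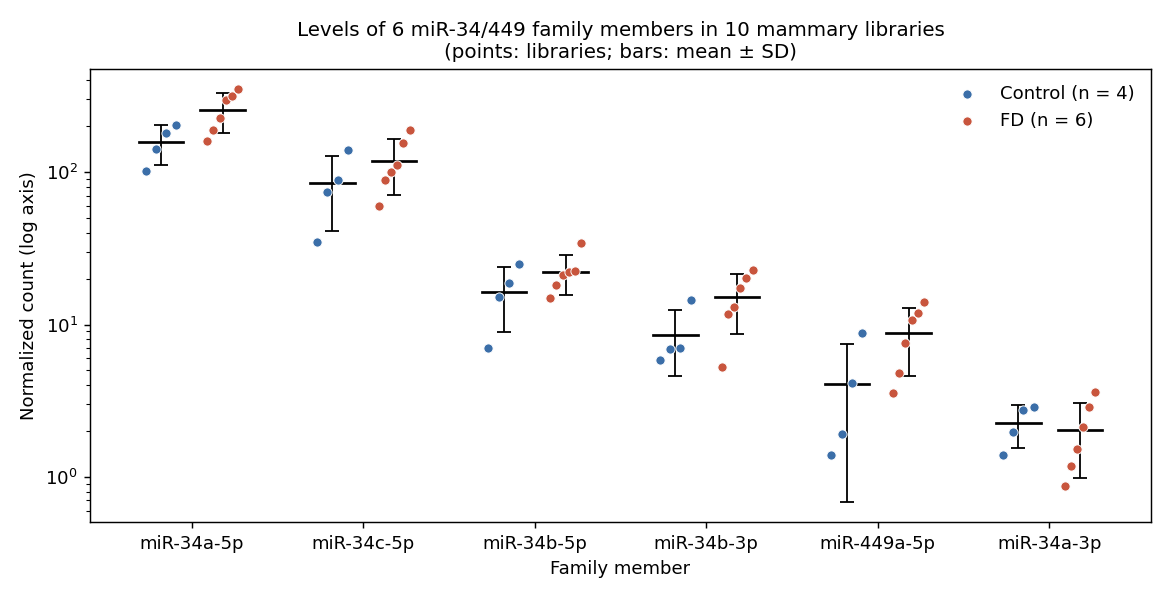
Levels of the family members by library: normalized count (log axis) for each of the members counted in every library, with Control libraries (n = 4) and FD libraries (n = 6) as points (spread sideways by level) and the mean ± SD of each diet as bars. MiR-34a-5p lies highest, from 101 to 351, and the 2 diets overlap for every member drawn.

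The share of the family's counts that belonged to miR-34a-5p varied between goats. It was lowest in the Control library L04, at 44.8% (95% Wilson interval 38.5 to 51.2), and highest in the Control library L06, at 73.4% (65.5 to 80.0). The FD libraries lay between these, from 47.0% in L07 to 70.3% in L05. The intervals of L04 and L06 did not overlap, so goats of the same diet differed in the makeup of the family by more than counting error. The miR-449 members together took from 0.493% of the family's counts in L10 (95% Wilson interval 0.135 to 1.78) to 4.58% in L09 (2.88 to 7.22). These intervals cover counting error only.

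**Figure D2:**
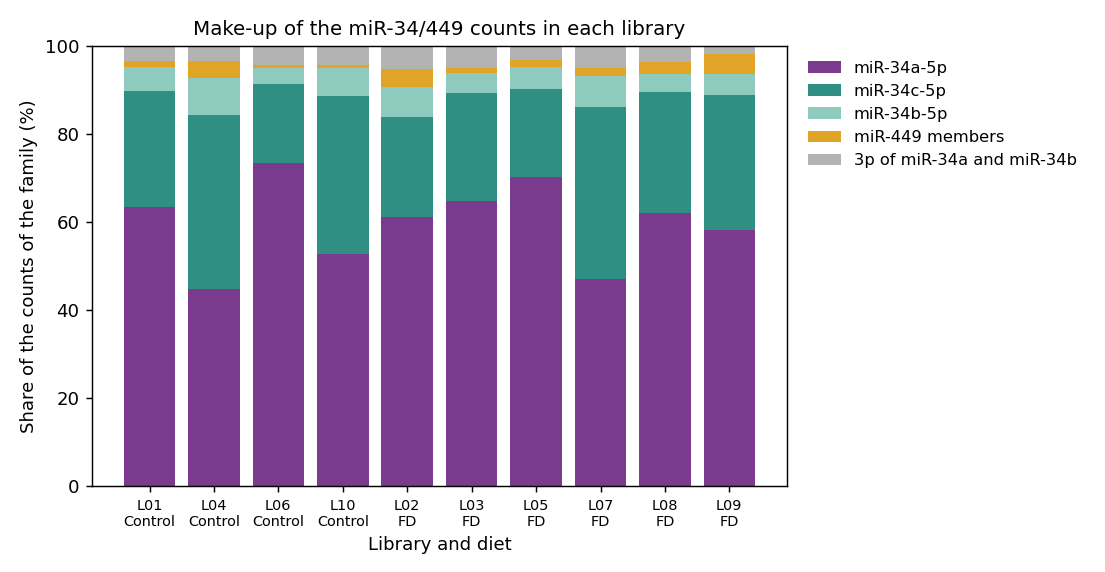
Makeup of the family by library: percent of the family's counts taken by miR-34a-5p, miR-34c-5p, miR-34b-5p, the miR-449 members together and the 3p arms of miR-34a and miR-34b together, 1 stacked bar per library, Control before FD. MiR-34a-5p and miR-34c-5p fill most of every bar, and the share of miR-34a-5p runs from 44.8% (L04) to 73.4% (L06).

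Only members with a highest normalized count above 28 entered the comparison across miRNA. These were miR-34a-5p, miR-34b-5p and miR-34c-5p, 3 of the 9. By the quasi-likelihood test of edgeR after Benjamini-Hochberg adjustment, 0 of these 3 passed an adjusted p of 0.1, and over all 490 miRNA tested the share that passed was 0%. At an unadjusted p under 0.05 in edgeR, 1 of the 3 members was higher in FD and 0 were lower, where 7.55% of all tested miRNA were higher and 8.16% lower. The median log2 fold change of the 3 was 0.46 and that of the 490 miRNA was -0.0004, but miR-34b-5p entered only through an FD library, L07, so the median and the direction of the 3 are a description only.

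MiR-34a-5p, the most studied member and a direct target of p53, was at 180, 101, 143 and 205 normalized counts in Control L01, L04, L06 and L10. In FD libraries it was at 161 in the lowest, 261 at the median and 351 in the highest. The FD libraries L03, L05, L07 and L08 lay above every Control library, L02 and L09 lay within the Control range, and L04 was the lowest of all, so the diets overlapped. The mean was 157 ± 45.4 (SD, n = 4) for Control and 256 ± 75.5 (SD, n = 6) for FD goats, a ratio of 1.63. The log2 fold change was 0.69 (SE 0.263), with an unadjusted p of 0.0212 and an adjusted p of 0.269 by the quasi-likelihood test of edgeR after Benjamini-Hochberg adjustment, so it did not pass. The two-sided exact permutation test of the single miRNA gave p = 0.0476. The spread between goats, 28.9% of the mean in Control and 29.4% in FD, was well above the 8.54% and 5.73% that counting alone gives at these depths. Without the Control library L04 the edgeR p was 0.0808 (log2 fold change 0.51), and without the FD library L08 it was 0.0562 (0.52).

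MiRNA named for other cell types of the gland were followed in the same libraries. Of 5 tested miRNA of leukocytes (the miR-146a, miR-150, miR-155 and miR-223 group), 4 (all but miR-155-5p) were higher in FD at an unadjusted edgeR p under 0.05, where 7.55% of all tested miRNA were higher and 8.16% lower, and their summed level was 9496 to 15531 normalized counts in Control libraries and 12226 to 23631 in FD libraries. Both tested miRNA of endothelium (miR-126) were higher in FD, with sums of 117544 to 144955 and 136542 to 197735, as was 1 of 3 of erythroid cells (miR-451-5p), with sums of 3750 to 6061 and 5961 to 8756. Of 10 tested miRNA of mammary epithelium, 2 were lower in FD (miR-200b-3p and miR-429-3p), with sums of 221821 to 245827 and 173949 to 243961. In sign the 10 were mixed: 8 log2 fold changes were negative and 2 positive (0.41 for miR-205-5p and 0.20 for miR-205-3p). Of 8 tested miRNA of stroma and smooth muscle 0 were higher or lower, with sums of 690407 to 928572 and 579433 to 1136230. By sign alone, 6 of these 8 were positive and 2 negative (miR-143-5p and miR-145-5p). In the epithelial sums miR-141-3p was the most abundant, with means of 128297 normalized counts in Control and 120582 in FD. In the stromal sums it was miR-143-3p, with means of 722366 and 790695. The sums mainly follow these 2 miRNA. None of the miRNA followed for these cell types passed an adjusted p of 0.1 in edgeR. MiR-203, miR-375, miR-142 and miR-486 were not analysed here, and the part of these cell types in the difference of miR-34a-5p was not tested.

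MiR-34c-5p, the more abundant of the pair cut from the shared transcript, was at 74.6, 89.3, 35.0 and 140 normalized counts in Control L01, L04, L06 and L10. In FD libraries it was at 59.8 in the lowest, 106 at the median and 188 in the highest. The FD libraries L07 and L08 were above every Control library and the Control library L06 was below every FD library, with the rest overlapping. The means were 84.8 ± 43.5 (SD, n = 4) and 118 ± 46.7 (SD, n = 6), and the log2 fold change was 0.46 (SE 0.366, adjusted p = 0.505, edgeR's quasi-likelihood test, Benjamini-Hochberg adjusted). The difference was smaller than the spread between goats. It rested in part on single libraries, since the log2 fold change was 0.22 without L06, 0.29 without L07 or without L08, and 0.76 without L10.

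MiR-34b-5p, its partner in the transcript, was at 15.2, 18.6, 7.0 and 24.97 normalized counts in the same Control libraries and at 14.9, 21.6 and 34.2 in the lowest, median and highest of the FD libraries. As for miR-34c-5p, L06 was the lowest library and L07 the highest. The means were 16.5 ± 7.49 (SD, n = 4) and 22.1 ± 6.58 (SD, n = 6), and the log2 fold change was 0.39 (SE 0.348, adjusted p = 0.563, edgeR's quasi-likelihood test, Benjamini-Hochberg adjusted). The diets overlapped, and the log2 fold change was 0.17 without L06 and 0.61 without L10. MiR-34b-5p met the count minimum through L07 alone, the only library in which it exceeded 28, and it was not tested when that library was left out.

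**Figure D3:**
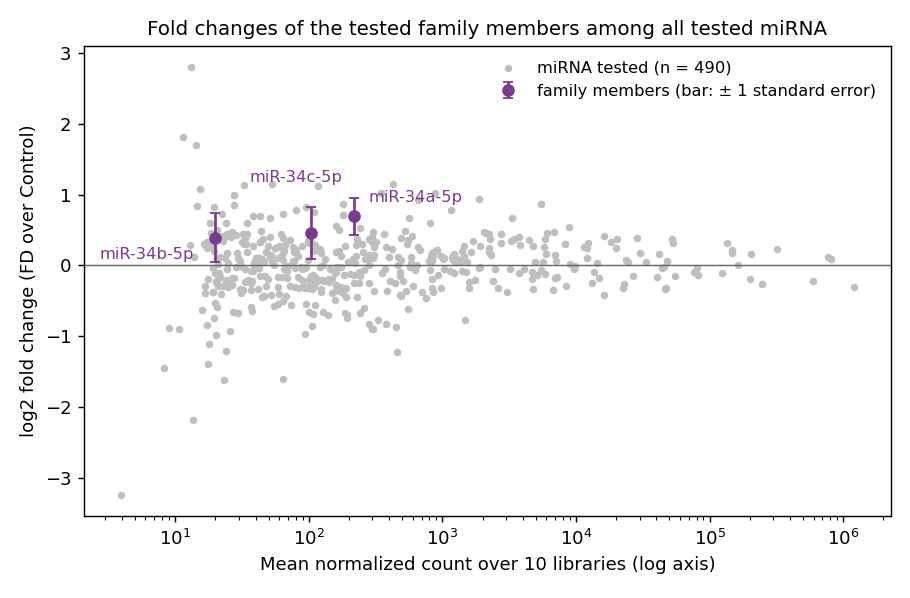
Fold changes of the tested members among all tested miRNA: log2 fold change of FD over Control against mean normalized count (log axis), with the 490 tested miRNA in grey and the 3 members in colour with bars of 1 standard error. The members lie at 0.39, 0.46 and 0.69, inside the spread of miRNA of like level.

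The other 6 members were too scarce for the comparison of 490 miRNA, and those with counts in every library were described from an edgeR fit of all 1804 miRNA without a minimum. In that fit 5.04% of all miRNA were higher in FD at an unadjusted p under 0.05, and 2 of these 6 members were, miR-449a-5p and miR-449c-5p. The second had 6 reads in all and 0 in Control libraries, too few to read as a difference, so this count is a description only. MiR-34b-3p, cut from the other arm of the miR-34b hairpin, was at 6.91, 5.89, 7.0 and 14.4 normalized counts in Control L01, L04, L06 and L10, and at 5.25, 15.1 and 22.8 in the lowest, median and highest of the FD libraries. The FD libraries L03, L07 and L08 lay above every Control library, L09 was the lowest of all, and the diets overlapped. The means were 8.55 ± 3.93 (SD, n = 4) and 15.0 ± 6.37 (SD, n = 6). The log2 fold change was 0.81 (SE 0.415, adjusted p = 0.475, edgeR's quasi-likelihood test, Benjamini-Hochberg adjusted), and the two-sided exact permutation test gave p = 0.133.

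MiR-449a-5p, the only miR-449 member with a count in every library, was at 4.15, 8.83, 1.40 and 1.92 normalized counts in Control L01, L04, L06 and L10, which are 3, 9, 1 and 2 reads. In FD libraries it was at 3.53 in the lowest, 9.14 at the median and 14.0 in the highest, from 3 to 20 reads. The FD libraries L02, L08 and L09 lay above every Control library, L06 and L10 lay below every FD library, and the rest overlapped. The means were 4.07 ± 3.39 (SD, n = 4) and 8.76 ± 4.14 (SD, n = 6). The log2 fold change was 1.08 (SE 0.527), with an unadjusted p of 0.0465 and an adjusted p of 0.475 (edgeR's quasi-likelihood test, Benjamini-Hochberg adjusted), and the two-sided exact permutation test gave p = 0.0762. At these levels counting alone gives a spread of 51.6% of the mean in Control and 30.6% in FD, against 83.1% and 47.3% measured. Without the Control library L04 the log2 fold change was 1.85, and the unadjusted p was above 0.05 when any of L01, L02, L06, L08, L09 or L10 was left out.

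The remaining miR-449 miRNA were at the limit of these libraries. MiR-449c-5p had 3 reads in L05 and 1 each in L07, L08 and L09, miR-449b-5p had 4 reads in L08, and miR-449a-3p had 1 read in L08. In Control libraries all 3 had 0 reads, which allows a level of up to 0.40 to 0.667 CPM in a library (3 counts of its total). The FD libraries were on the whole sequenced more deeply, with a limit of 0.305 to 0.529, so no fold change is given. Summed over the miR-449 members and over the libraries of a diet, there were 15 reads in Control (0.647 CPM, 95% Poisson interval 0.362 to 1.07) and 75 in FD (1.68 CPM, 1.32 to 2.10), and these intervals leave out the spread between goats. The Control library L04 held 9 of the 15 reads, and without it the Control level was 0.362 CPM (95% Poisson interval 0.133 to 0.787). The FD library L08 held 26 of the 75 reads, and without it the FD level was 1.40 CPM (95% Poisson interval 1.04 to 1.86). That interval overlapped the one of all Control libraries.

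MiR-34a-3p, the minor product of the miR-34a hairpin, had 1 to 6 reads per library. It was at 2.76, 1.96, 1.40 and 2.88 normalized counts in Control L01, L04, L06 and L10, and at 0.876, 1.83 and 3.59 in the lowest, median and highest of the FD libraries. The diets overlapped and its log2 fold change was -0.085 (SE 0.715, adjusted p = 0.992, edgeR's quasi-likelihood test, Benjamini-Hochberg adjusted). In both diets its spread was smaller than counting alone gives, 31.0% against 70.7% in Control and 51.6% against 63.2% in FD.

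Ratios within a library do not depend on the scaling between libraries, and 4 of them were compared, on raw counts with 0.5 added. MiR-34a-5p and miR-34a-3p come from the same hairpin, and over all libraries the 5p arm had 103 reads for each read of the 3p arm. By library this ratio was 41.4 to 68.3 in Control and 60.6 to 179 in FD, with overlap. On the log2 scale the mean was 5.78 ± 0.314 (SD, n = 4) and 6.74 ± 0.560 (SD, n = 6), a difference of 0.96 (two-sided exact permutation test, p = 0.0238, 0.0952 adjusted over the 4 ratios, against a threshold of 0.05 for ratios). The 3p arm had 1 to 6 reads in a library. At such counts the added 0.5 makes the ratio depend on depth, and in L05 268 reads to 1 gave 179. Only without the FD library L02 did the adjusted exact p, at 0.0317, fall under 0.05.

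For miR-34b the arms were closer, with 1.57 reads of the 5p arm for each of the 3p arm over all libraries and a log2 difference between diets of -0.22 (two-sided exact permutation test, p = 0.524). MiR-34b-5p had 0.184 reads for each read of miR-34c-5p over all libraries, from 0.181 to 0.216 in Control and from 0.143 to 0.310 in FD, and the log2 ratio did not differ between the diets beyond the spread between goats (difference -0.045, two-sided exact permutation test, p = 0.852). MiR-34a-5p had 1.13 to 4.02 reads for each read of miR-34c-5p in Control and 1.20 to 3.51 in FD. Its log2 ratio differed between the diets by 0.16 (two-sided exact permutation test, p = 0.686), with -0.11 when L04 was left out and 0.50 when L06 was.

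The members were also compared with each other across the 10 goats, on the log2 scale of normalized counts, in 3 pairs. MiR-34b-5p and miR-34c-5p, the neighbours on chromosome 15, had a Pearson r of 0.891 (permutation p = 0.00089, 0.00267 adjusted over the 3 pairs) and a Spearman rho of 0.782 (permutation p = 0.0101, adjusted 0.0293). The Pearson r was 0.869 after the mean of each diet was removed, and within the 6 FD libraries it was 0.692 (permutation p = 0.123). Without L06 and L07, the libraries farthest from the median of miR-34c-5p, r was 0.603 (permutation p = 0.115), so the relation over 10 libraries rested in part on those libraries, which hold the lowest and the highest miR-34c-5p. With 1 library left out at a time r was 0.765 (without L06) to 0.936 (without L02), and 0.853 without L07, with a permutation p adjusted over the 3 pairs of 0.0452 at most. The 4 Control libraries were too few for a value of their own, and the part of reads that could fit both miRNA was not tested.

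For miR-34a-5p, which lies on another chromosome, the Pearson r with miR-34c-5p was 0.537 (permutation p = 0.107, adjusted 0.161) and the Spearman rho 0.733 (permutation p = 0.0195, adjusted 0.0293). With miR-34b-5p the Pearson r was 0.470 (permutation p = 0.166, adjusted 0.166) and the rho 0.636 (permutation p = 0.0543, adjusted 0.0543). With the mean of each diet removed these Pearson values were 0.404 and 0.266, and without L04 and L08 they were 0.599 and 0.643.

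**Figure D4:**
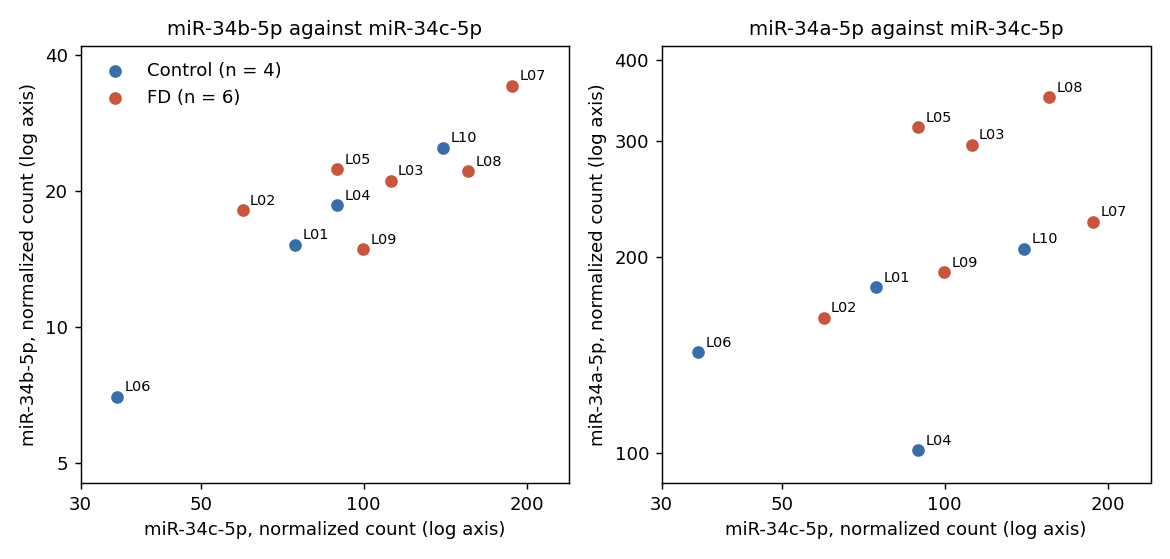
Members against each other by library: normalized counts (log axes) of miR-34b-5p (left) and miR-34a-5p (right) against miR-34c-5p, 1 point per library, coloured by diet. MiR-34b-5p follows miR-34c-5p from L06 to L07, while miR-34a-5p in L04 is at 101 beside a miR-34c-5p of 89.3, near the 89.4 of L05 where miR-34a-5p is at 315.

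The tested miRNA outside the family that were most like miR-34a-5p and miR-34c-5p in their pattern over the 10 libraries were ranked by Pearson correlation of log2 normalized counts, which share the libraries' depth and scaling. Those most like miR-34a-5p were miR-125b-5p (0.927), miR-199b-5p (0.862), miR-125b-3p (0.858), miR-196a-5p (0.851) and the predicted chrX_39298-5p (0.843), where the median over all tested miRNA outside the family was 0.0039. Those most like miR-34c-5p were miR-26a-5p (0.895), miR-195-3p (0.886), miR-205-3p (0.884), miR-205-5p (0.833) and miR-26b-5p (0.770), with a median of 0.043. No miRNA was on both lists. The highest of so many correlations over 10 libraries lie far above the median by selection alone, and whether they exceed chance was not tested. With the mean of each diet removed, the value for miR-125b-5p was 0.871 and that for miR-26a-5p was 0.888.

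Other miRNA that p53 is known to induce, at transcription or in processing, were counted as a list of 14 names, of which 11 were tested, as 17 mature miRNA (miR-605 and miR-1246 were not analysed here, and miR-16 is listed as miR-16a and miR-16b). The miR-143, miR-145 and miR-200c of this list are also counted among the stromal and epithelial miRNA above. By the quasi-likelihood test of edgeR after Benjamini-Hochberg adjustment, 0 of the 17 passed an adjusted p of 0.1. At an unadjusted p under 0.05, 2 were higher in FD and 1 was lower, beside the 7.55% and 8.16% of all tested miRNA. The higher ones were miR-16a-5p and miR-16b-5p, which repress cell-cycle genes, each with a log2 fold change of 0.39 (adjusted p = 0.269 and 0.304, edgeR), and the lower one was miR-22-3p, at -0.26 (adjusted p = 0.269, edgeR). Of the 17, 9 had a fold change above 0 and 8 below. Their median log2 fold change was 0.085, against -0.0004 over all tested miRNA. MiR-16a-3p, 1 of the 9, had means of 14.9 ± 4.69 (SD) normalized counts in Control and 20.8 ± 6.03 in FD. At these levels it could enter the comparison only through FD libraries, so the signs and the median of the 17 are a description only.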

How the data were processed

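Small RNA libraries were sequenced from the mammary gland of 4 Control and 6 FD goats, 1 per goat, so the replicates are biological. After adapter removal with Cutadapt, the authors kept reads of 17 to 28 nt, aligned these to the goat assembly CHIR_1.0 and counted them per mature miRNA with the quantifier of miRDeep2 on known (miRBase 21) and predicted precursors; CASAVA 1.8.2 is named in the submitters' processing notes. The counts are used as deposited, without normalization. The miRDeep2 score values of the 1070 predicted precursors are the authors', made on all libraries together. The normalized columns were not used. No molecular identifiers are described, so intervals and limits cover counting error only. Libraries of a diet differed beyond sampling noise in every pair (chi-square per degree of freedom from 50.4).

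MiRNA with a highest normalized count (DESeq2 size factors) above 28 were tested with edgeR's quasi-likelihood method (TMM, two-sided, Benjamini-Hochberg adjustment over all 490, threshold 0.1). Fold changes are FD over Control. Single values were tested by exact permutation over the 210 ways to choose the Control libraries, and correlations by 100000 permutations. Named were all members, the 5 miRNA most like miR-34a-5p and miR-34c-5p, and list miRNA at an unadjusted p under 0.05. Members and lists were chosen with earlier results of these data known. Alternatives were DESeq2, limma-voom, other scalings, filters and pseudocounts, and each library left out; a raw count minimum, and the permutation tests and left-out libraries for scarce members, were chosen after seeing the data. Data of 490 miRNA were simulated for FD against Control, with 200 changed, up or down. In these, edgeR recovered 41% of changes of 1.5-fold, 88.5% of 2-fold and 98% of 3-fold, with 7, 14 and 14 false calls. It made 0 calls with none changed. An adjusted threshold is easier to pass where so many miRNA change, so these shares are not the power of the comparison of the diets. The software was R 4.3.3, edgeR 4.0.16, DESeq2 1.42.0, limma 3.58.1, Python 3.11.15, scipy 1.17.1, numpy 2.4.6, matplotlib 3.10.9 and pandas 2.3.3.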

Additional observations from a re-analysis of the deposited data

Results flagged for a closer look

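In 5 of the 23 groups of libraries examined, 1 library stood apart from the others of its diet by Dixon's criterion. Chance alone meets it in about 1 of 20 groups of normally distributed values. That rate does not hold for counts that are mostly 0, so the 5 flags are not set against it. MiR-34b-3p was at 14.4 normalized counts in the Control library L10, above the other Control libraries. In the same library the log2 ratio of miR-34b-5p to miR-34c-5p was the lowest of the Control libraries, at -2.47. The other 3 values were those of scarce miR-449 miRNA in FD libraries. MiR-449c-5p was highest in L05, at 3.53 normalized counts from 3 reads. MiR-449b-5p was at 2.39 in L08 from 4 reads, and miR-449a-3p at 0.598 in L08 from 1 read, with both at 0 in the other FD libraries. With reads in 1 library only, the criterion is met whatever their number.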

How the results depend on the processing

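Of 227 alternative values over 21 results, 210 kept their direction and their side of the threshold (adjusted p of 0.1 for fold changes and 0.05 for ratios and correlations) or, where there was no test, moved by less than the spread between goats or, for counts of miRNA, by less than 1.5 times. Of the rest, 9 reversed in direction (the fold change of miR-34a-3p or a ratio), 7 counts of miRNA moved further and 1 ratio became stronger. Most tested values were far from their threshold at the start, so staying on the same side was a weak check. The level of the miR-449 members with each library left out was an alternative chosen after seeing the data. The number of miRNA with an adjusted p under 0.1 was 0 in edgeR, 27 in DESeq2, 5 with no filter and 0 to 1 with each library left out (1 without L02). The number with an unadjusted p under 0.05 was 77, 178 with no filter (1804 miRNA tested) and 46 to 97 with each library left out (46 without L01 or without L08, 50 without L06, 97 without L02). For miR-34a-5p the log2 fold change was 0.64 to 0.75 over the other tools, scalings and filters (adjusted p from 0.122 in DESeq2 to 0.317 in limma-voom) and 0.51 to 0.81 with each library left out. Leaving out libraries gave 0.22 to 0.76 for miR-34c-5p, 0.17 to 0.61 for miR-34b-5p, 0.66 to 1.20 for miR-34b-3p, 0.81 to 1.85 for miR-449a-5p and -0.40 to 0.068 for miR-34a-3p. The difference between the diets in log2 ratio was 0.81 to 1.13 for miR-34a-5p to miR-34a-3p (adjusted exact permutation p from 0.0317 to 0.286), -0.11 to 0.50 for miR-34a-5p to miR-34c-5p, -0.51 to 0.018 for miR-34b-5p to miR-34b-3p and -0.17 to 0.048 for miR-34b-5p to miR-34c-5p. MiR-34b-5p gave no value with a minimum of 100. The cause of these shifts was not tested. No paired analysis was possible because each goat had 1 diet and the numbers of the libraries are shared by no Control and FD goats. Depth limits miR-449b-5p, miR-449c-5p, miR-449a-3p and miR-34a-3p, which had at most 6 reads in a library.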
